A study of Homo sapiens with 6 samples.

Results

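The genes followed here, 10 in number, encode enzymes that handle superoxide, hydrogen peroxide and oxidised thiols: SOD1, SOD2, CAT, GPX1, GPX2, GPX3, GPX8, GLRX, GLRX2 and GLRX5. They were taken by name as 10 of the 60624 identifiers of a deposited TPM table (expression scaled for transcript length and library total). The libraries are poly(A)-selected RNA from SV-HUC-1, an established human urothelial line immortalised with SV40. The control group holds 3 libraries of cells given a blank solution and the DCBQ group 3 libraries of cells given 2,6-dichloro-1,4-benzoquinone, a quinone byproduct of water disinfection, each for 3 days. The dose of the quinone is not given in the labels used here. Whether replicate libraries stem from separate cultures is not labelled either, and the p-values thus reflect variation among libraries that may be technical.

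Superoxide dismutases turn superoxide into hydrogen peroxide, SOD1 with copper and zinc mainly in the cytosol and SOD2 with manganese in mitochondria. Catalase, a haem enzyme of peroxisomes, splits hydrogen peroxide without a thiol, while glutathione peroxidases reduce peroxides with electrons from glutathione. Glutaredoxins use glutathione to remove it from protein thiols, or, in the case of GLRX5, to pass on iron-sulphur clusters in mitochondria. Quinones such as DCBQ can react with glutathione and can cycle with oxygen to give superoxide, which is the background against which these genes are read.

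All 6 columns sum to 1000000 TPM, which keeps no record of depth, so the depth is unknown and no interval that needs it is given. The share of TPM from mitochondrially encoded genes was 20.9% to 22.2% in control libraries and 28.0% to 28.8% in DCBQ libraries. Among the 12 epithelial markers checked, 11 passed the expression filter and TP63, a basal marker, was near 0 in every library. Their sum was 4594 to 4788 TPM in control and 6432 to 6719 in DCBQ libraries. Of the 11, 7 were higher, against 13.4% of all tested genes (KRT5 2.59-fold, KRT19 2.21-fold, ELF3 2.90-fold and GRHL3 3.82-fold among them). KLF5 (1.36-fold) and KRT7 (1.11-fold) were the 2 lower, against 39.5% of all tested genes. EPCAM and CDH1 did not pass the test. The 8 fibroblast markers summed to 6.93 to 8.17 TPM in control and 14.9 to 16.7 in DCBQ libraries, nearly all from COL1A1, with COL1A2, COL3A1, DCN and LUM listed at 0 in all 6. The 8 immune markers summed to 4.30 to 6.03 TPM in control and 10.5 to 12.1 in DCBQ, mostly from CD68, with LYZ and TYROBP among those listed at 0. The 6 endothelial markers summed to 6.59 to 7.51 TPM in control and 8.63 to 15.0 in DCBQ, but the 2 that were tested went opposite ways, with CDH5 higher (4.24 to 10.6 TPM) and KDR lower (2.63 to 0.39 TPM). The part of these shifts in the results that follow was not tested.

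After 3 days of DCBQ, SOD1, CAT and GLRX were higher and GPX1 and GLRX2 were lower, while SOD2, GPX3, GPX8 and GLRX5 did not pass the test. Of the 10 genes 9 had a mean of at least 1 TPM and were tested with limma on log2(TPM + 1), adjusted over all 16734 tested genes. Of these 9, 3 were called higher (13.4% of all tested genes were), 2 were called lower (39.5% of all tested genes were) and 4 did not pass. Calls in either direction made up 5 of the 9, against 52.9% of all tested genes, a share near the background. The DCBQ libraries lay wholly above the controls for 3 of the 9 (16.0% of all tested genes) and wholly below them for 2 (45.2%), 5 of 9 in all against 61.2% of tested genes. Each of the 9 exceeded 1 TPM in every library of both groups. The median tested gene differed by -0.21 on this scale. Median-of-ratios scaling, which brings that median near 0, gave 3995 genes higher (23.9%) and 3861 lower (23.1%), against 2247 and 6610 as deposited. In bulk RNA, less RNA per cell and fewer cells with the RNA cannot be told apart.

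**Figure D1:**
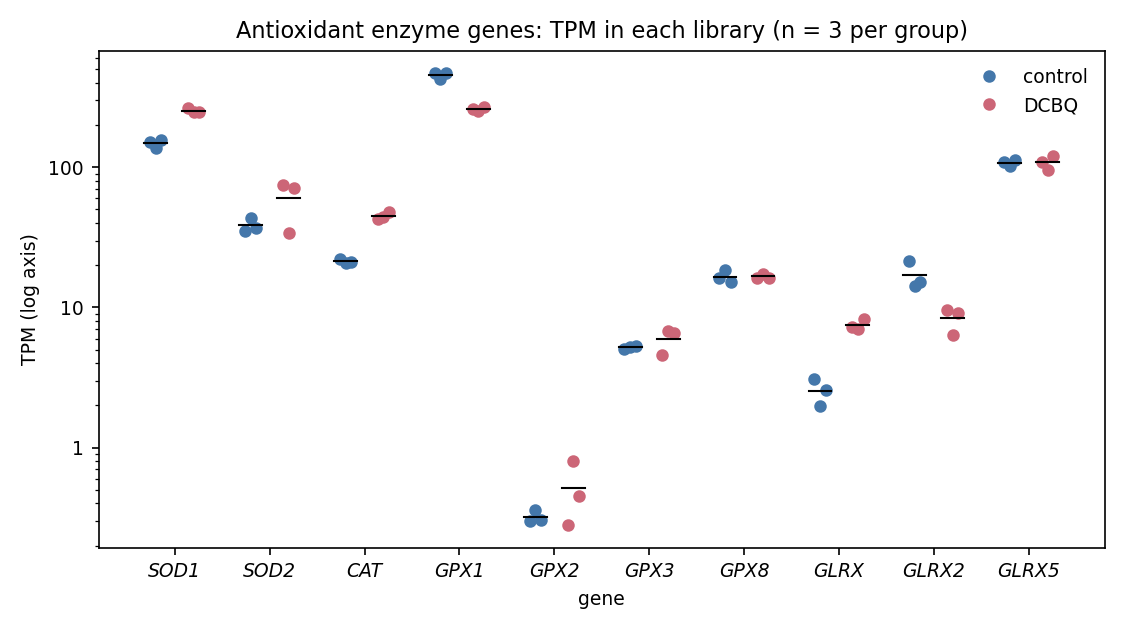
TPM of the 10 genes on a log axis, with a point for each of the 3 control and 3 DCBQ libraries and a black line at each group mean. SOD1, CAT and GLRX are higher and GPX1 and GLRX2 lower in every DCBQ library than in any control library, and the SOD2 points of DCBQ split into 2 high values and 1 low value.

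SOD1 (ENSG00000142168, chromosome 21, 31659622 to 31668931, plus strand, GRCh38) encodes the copper and zinc enzyme. It stood at 152, 136 and 156 TPM in the control libraries and at 265, 249 and 247 TPM in the DCBQ libraries. Every DCBQ library lay above every control library. The mean went from 148 ± 11 to 254 ± 10 TPM (SD, n = 3 per group), 1.71-fold higher (log2 difference 0.78, SE 0.060, limma adjusted p = 2.47e-05). The difference stood at percentile 96.0 of all tested genes and 0.99 above the median gene. GENCODE 29 places a small nucleolar RNA and an antisense RNA over SOD1.

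SOD2 (ENSG00000112096, chromosome 6, 159669057 to 159745186, minus strand) encodes the mitochondrial manganese enzyme. It stood at 35.3, 43.4 and 37.0 TPM in control and at 74.6, 33.8 and 71.6 TPM in DCBQ. DCBQ replicates 1 and 3 lay above every control library and replicate 2 below them all, so the groups overlapped. The log2 difference was 0.55 (95% interval -0.07 to 1.16, limma adjusted p = 0.12) and did not pass. Without DCBQ replicate 2 it was 0.91 (adjusted p = 0.00029), and with array weights, which count divergent libraries less, 0.66 (adjusted p = 0.038). Median-of-ratios scaling gave 0.79 (adjusted p = 0.057), which did not pass. The spread of SOD2 among the DCBQ libraries, an SD of 0.63 on the log2 scale, was wider than that of 99.8% of the 1000 tested genes nearest to it in level.

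The SOD2 locus is a hard one to quantify from short reads. GENCODE 29 gives it 14 transcripts of 454 to 14266 bases, the widest range among the 10 genes, and TPM depends on the length to which reads are assigned. A further identifier named SOD2 (ENSG00000285441) overlaps it on the same strand and was listed at 0 to 2.17 TPM. The gene WTAP, which encodes a part of the RNA methylation complex, overlaps it on the opposite strand. WTAP fell from 106 ± 17 to 64.8 ± 8.9 TPM (limma adjusted p = 0.0024), and no source used here states whether counting used strand. With both SOD2 identifiers summed, the difference was 0.51 (adjusted p = 0.15). The part of the locus in the spread of SOD2 was not tested.

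CAT (ENSG00000121691, chromosome 11, 34438925 to 34472062, plus strand) encodes catalase and had the smallest adjusted p of the 10 genes. Its upstream window is shown because it is dense in a single motif. The 241 bases before the first annotated base, at chr11:34438684-34438924 on the plus strand of GRCh38.p14 (RefSeq), are given 5′ to 3′ with every CCAAT box (CCAAT or, on the other strand, ATTGG) and the GC box (GGGCGG) in capitals.
CAT: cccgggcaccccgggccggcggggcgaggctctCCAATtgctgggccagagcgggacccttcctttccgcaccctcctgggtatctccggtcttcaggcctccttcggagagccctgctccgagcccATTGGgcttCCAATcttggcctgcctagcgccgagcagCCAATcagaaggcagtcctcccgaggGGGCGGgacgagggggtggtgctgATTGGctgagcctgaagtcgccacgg

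CAT stood at 22.1, 20.7 and 21.2 TPM in control and at 42.8, 44.4 and 47.8 TPM in DCBQ. The lowest DCBQ library was far above the highest control library. The mean went from 21.3 ± 0.70 to 45.0 ± 2.5 TPM (SD, n = 3 per group), 2.11-fold higher (log2 difference 1.04, SE 0.066, limma adjusted p = 8.72e-06). The difference stood at percentile 98.1 of all tested genes. GENCODE 29 lists no other gene over the CAT locus, so its reads are not shared with an overlapping gene there.

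The CAT window holds 5 CCAAT boxes. Of 35116 windows of 250 bases upstream of RefSeq starts of human genes, searched on both strands, 32.0% held at least 1 CCAAT and 0.319% held 5 or more. GLRX5, whose level did not pass the test, also has 5 in its window. Promoter windows were found for 9 of the 10 genes, and SOD1 had none in the table.

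The antioxidant response element TGACNNNGC, bound by NRF2 with small MAF proteins, was searched on both strands in the same windows. It occurred in 10.9% of all windows and, among the 9 genes with windows, in GPX2 alone. The stretch is shown because GPX2 is the member with these letters and yet the lowest in level. It lies at chr14:64942849-64942877 on the minus strand of GRCh38.p14 (RefSeq). That is inside the GENCODE 29 span of GPX2 (64939152 to 64942905), since the windows follow RefSeq starts. The element, which reads in the reverse direction here, is in capitals.
GPX2: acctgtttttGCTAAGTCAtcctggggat

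The AP-1 site TGANTCA was in 6.57% of all windows and in none of the 14 windows of the 9 genes. The forkhead site TGTTTAC was in 2.98% of all windows and in 1 of the 3 GLRX2 windows. The GC box was in 42.6% of all windows and in those of SOD2, CAT, GPX1, GPX2, GPX3 and GLRX5, and in 1 of the 3 of GLRX2. The TATA box TATAAA was in 10.7% of all windows and in none of these. Matches of letters are a description only, and AP-1 and antioxidant response elements can overlap.

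Among the glutathione peroxidases, GPX1, GPX2 and GPX3 carry the rare amino acid selenocysteine, which is read from a TGA codon that would otherwise end the protein. GPX8, a peroxidase of the endoplasmic reticulum, has no such codon annotated in GENCODE 29. The 45 coding bases around the codon are shown for these genes and for GPX4, the phospholipid peroxidase of the same family, because GPX1 and GPX4, which fell, and GPX3, which did not pass, share this feature. TGA is in capitals, 5′ to 3′ on the coding strand of GENCODE 29 (GRCh38), with the codon at chr3:49358132-49358134 (minus) for GPX1, chr14:64942607-64942609 (minus) for GPX2, chr5:151025469-151025471 (plus) for GPX3 and chr19:1105403-1105405 (plus) for GPX4.
GPX1: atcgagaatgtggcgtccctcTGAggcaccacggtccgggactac
GPX2: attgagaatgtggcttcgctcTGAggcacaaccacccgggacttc
GPX3: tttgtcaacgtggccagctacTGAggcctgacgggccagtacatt
GPX4: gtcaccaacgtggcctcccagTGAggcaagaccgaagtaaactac

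GPX1 and GPX2 share 37 of these 45 bases, while GPX1 shares 26 with GPX3 and 28 with GPX4.

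GPX1 (ENSG00000233276, chromosome 3, 49357171 to 49358600, minus strand) encodes the main glutathione peroxidase of cytosol and mitochondria, and it was the most abundant of the 10 genes in control. It stood at 468, 425 and 467 TPM in control and at 261, 251 and 269 TPM in DCBQ. All 3 DCBQ libraries lay below all 3 controls. The mean went from 453 ± 24 to 260 ± 9.2 TPM (SD, n = 3 per group), 1.74-fold lower (log2 difference -0.80, SE 0.051, limma adjusted p = 9.33e-06). The difference stood at percentile 10.8 of all tested genes, and after median-of-ratios scaling it was -0.55.

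GPX1 has a processed copy on chromosome X, GPX1P1, with which reads can be shared. GPX1P1 stood at 9.51 ± 1.7 TPM in control and 5.94 ± 1.6 in DCBQ (limma adjusted p = 0.024), lower in DCBQ as GPX1 was. No other GENCODE 29 gene overlaps GPX1. RHOA, a neighbour upstream on the same strand, stood at 658 ± 10 TPM in control libraries against 663 ± 8.2 in DCBQ libraries and did not pass (adjusted p = 0.81).

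GPX2 (ENSG00000176153, chromosome 14, 64939152 to 64942905, minus strand), the gastrointestinal form, was barely present. It stood at 0.30, 0.36 and 0.31 TPM in control and at 0.28, 0.80 and 0.46 TPM in DCBQ, and the groups overlapped. It was below the filter and was not tested. CHURC1 covers it on the opposite strand at 41.4 ± 0.37 TPM in control and 34.5 ± 1.4 in DCBQ.

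GPX3 (ENSG00000211445, chromosome 5, 151020438 to 151028993, plus strand) encodes the secreted, plasma form. It stood at 5.04, 5.21 and 5.32 TPM in control and at 4.58, 6.74 and 6.60 TPM in DCBQ. DCBQ replicate 1 lay below every control and the other two above, and the gene did not pass (log2 difference 0.16, 95% interval -0.19 to 0.50, limma adjusted p = 0.42). The difference was 0.31 without DCBQ replicate 1 (adjusted p = 0.061), 0.07 without replicate 2 and 0.09 without replicate 3, and median-of-ratios scaling gave 0.36 (adjusted p = 0.061). Its SD on the log2 scale stood at percentile 4.8 among the 1000 tested genes nearest in level in control and at percentile 73.8 in DCBQ.

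GPX8 (ENSG00000164294, chromosome 5, 55160118 to 55167071, plus strand) stood at 16.1, 18.4 and 15.2 TPM in control and at 16.3, 17.5 and 16.1 TPM in DCBQ. The groups overlapped, with means of 16.5 ± 1.6 and 16.6 ± 0.72 TPM. Its log2 difference was 0.01 (95% interval -0.20 to 0.22, limma adjusted p = 0.93). After median-of-ratios scaling, which sets the median gene near 0, it was 0.24 (adjusted p = 0.0495), and after quantile normalization 0.29 (adjusted p = 0.023), both called higher. CDC20B overlaps GPX8 on the opposite strand in GENCODE 29.

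**Figure D2:**
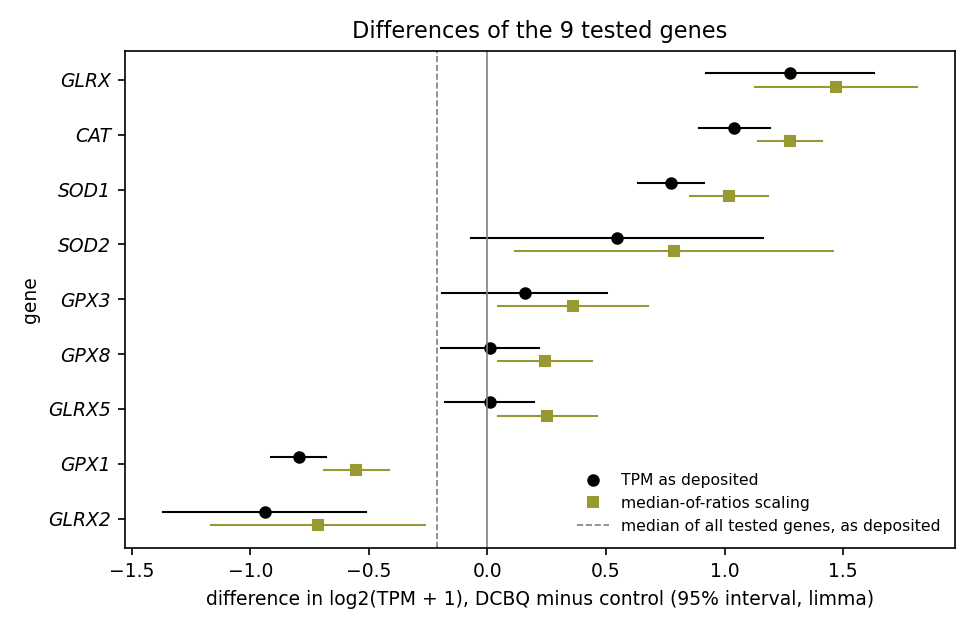
Difference in log2(TPM + 1), DCBQ minus control, with its 95% limma interval for the 9 tested genes, as deposited (black circles) and after median-of-ratios scaling (olive squares), with 3 libraries per group. GLRX, CAT and SOD1 lie above 0 and GPX1 and GLRX2 below 0 on both scales, and the dashed line marks the median of all tested genes at -0.21.

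Of the glutaredoxins 1 rose, 1 fell and 1 did not pass. GLRX (ENSG00000173221, chromosome 5, 95751319 to 95823005, minus strand), the cytosolic dithiol form, was the largest increase of the 10 genes by ratio. It stood at 3.11, 1.98 and 2.56 TPM in control and at 7.27, 7.05 and 8.29 TPM in DCBQ. Every DCBQ library was above every control. The mean went from 2.55 ± 0.56 to 7.54 ± 0.66 TPM (SD, n = 3 per group), 2.96-fold higher (log2 difference 1.28, SE 0.15, limma adjusted p = 0.00024), and the pseudocount understates the change of a gene this low. RHOBTB3 covers the whole GLRX locus on the opposite strand, with 83.4 ± 2.1 TPM in the controls against 88.1 ± 10 after DCBQ (adjusted p = 0.47).

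GLRX2 (ENSG00000023572, chromosome 1, 193090866 to 193106114, minus strand) encodes a mitochondrial and nuclear form that can itself bind an iron-sulphur cluster. It stood at 21.6, 14.3 and 15.2 TPM in control and at 9.58, 6.38 and 9.08 TPM in DCBQ. The groups did not overlap, although control replicate 1 stood well above the other controls. The mean went from 17.0 ± 4.0 to 8.35 ± 1.7 TPM (SD, n = 3 per group), 2.03-fold lower (log2 difference -0.94, SE 0.19, limma adjusted p = 0.0032). Its spread was wider than that of 94.4% of genes of like level in control and 91.3% in DCBQ. RO60, which overlaps the 3′ end of GLRX2 on the opposite strand, stood at 30.4 ± 2.6 and 24.3 ± 5.6 TPM and did not pass (adjusted p = 0.089).

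GLRX5 (ENSG00000182512, chromosome 14, 95533503 to 95544724, plus strand), the mitochondrial monothiol form, was the most abundant glutaredoxin among the 3. It stood at 109, 102 and 112 TPM in control and at 109, 96.3 and 121 TPM in DCBQ. The DCBQ libraries lay on both sides of the controls. The log2 difference was 0.01 (95% interval -0.18 to 0.20, limma adjusted p = 0.93). After median-of-ratios scaling it was 0.25 (95% interval 0.04 to 0.46, adjusted p = 0.0507) and did not pass. The antisense RNA SNHG10 and the copy GLRX5P2 also share sequence or position with it, at 9.83 ± 1.5 and 4.16 ± 0.86 TPM in control and 9.29 ± 0.88 and 2.45 ± 0.96 in DCBQ. SNHG10 did not pass (limma adjusted p = 0.69). Unlike GLRX5, GLRX5P2 was called lower, though its groups overlapped (log2 difference -0.60, limma adjusted p = 0.0498).

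TPM is scaled for length, so levels can be ordered between genes, and the first 5 genes of that order were the same in both groups. In control, GPX1 was first, followed by SOD1, GLRX5, SOD2, CAT, GLRX2, GPX8, GPX3, GLRX and GPX2. Neighbours in that order did not overlap between libraries except CAT with GLRX2 and GLRX2 with GPX8. In DCBQ the order was GPX1, SOD1, GLRX5, SOD2, CAT, GPX8, GLRX2, GLRX, GPX3 and GPX2. There the ranges of GPX1 and SOD1, of SOD2 and CAT, and of GLRX2 and GLRX overlapped, and those of the other neighbours did not. By group mean GPX8 thus stood above GLRX2, and GLRX above GPX3, in DCBQ and not in control. For GPX8 and GLRX2 the order in control rests on control replicate 1 (16.09 against 21.55 TPM). In control replicates 2 and 3 GPX8 was already the higher, at 18.35 against 14.25 and 15.17 against 15.15 TPM. GPX1 and SOD1, which were 453 and 148 TPM in control, came to 260 and 254 TPM.

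Ratios between genes of the same library do not depend on how that library was scaled. SOD1 stood at 0.326, 0.320 and 0.334 of GPX1 in the control libraries and at 1.02, 0.993 and 0.916 of it in the DCBQ libraries. The mean went from 0.327 ± 0.0072 to 0.976 ± 0.053 (SD, n = 3 per group), 2.99-fold higher. CAT over GPX1 went from 0.0471 ± 0.0017 to 0.173 ± 0.0073, 3.67-fold higher. GLRX over GLRX2 went from 0.151 ± 0.016 to 0.925 ± 0.17, 6.14-fold higher. SOD1 over CAT moved least, from 6.94 ± 0.40 to 5.66 ± 0.52. No DCBQ library overlapped a control library in any of these 4 ratios. For SOD1 over GPX1, CAT over GPX1 and GLRX over GLRX2 that separation was fixed by the levels given above. Their first gene lay wholly higher and their second wholly lower in DCBQ. The ratios and sums were not among the planned results. Each ratio had p = 0.1 in a two-sided exact permutation test, the smallest that 20 labellings can give. After Benjamini-Hochberg adjustment over the 17 ratios, sums and shares computed, it was 0.121.

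Summed over the listed genes, dismutase TPM went from 187 ± 6.8 to 314 ± 29 (1.68-fold) and glutathione peroxidase TPM from 475 ± 23 to 284 ± 8.4, without overlap. With GPX4 and GPX7 included the peroxidase sum went from 741 ± 29 to 492 ± 8.1. The glutaredoxin sum was 127 ± 8.0 in control and 125 ± 14 in DCBQ and overlapped (exact permutation p = 0.9, 17 values). Within that sum GLRX went from 1.99 ± 0.32% to 6.07 ± 0.33% and GLRX2 from 13.3 ± 2.5% to 6.67 ± 0.90%. GLRX5 made up 84.7 ± 2.7% and 87.3 ± 0.59%. GPX1 was 95.3 ± 0.58% of the listed peroxidases in control and 91.8 ± 0.80% in DCBQ, while GPX8 went from 3.50 ± 0.52% to 5.87 ± 0.41% at an almost constant TPM. SOD2 was 20.7 ± 3.0% of the dismutase sum in control and 18.8 ± 5.9% in DCBQ, with overlap. With GPX4, GPX7 and GLRX3 in the totals, the difference in share was -8.18 percentage points for GPX1 in place of -3.51, 1.14 for GPX8 in place of 2.38 and -3.34 for GLRX2 in place of -6.63. The shares of the listed glutaredoxins and peroxidases did not overlap between groups, each with the smallest possible p of 0.1.

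Of the 6 family genes outside the 10, 3 were tested, 2 fell (39.5% of all tested genes did) and 0 rose (13.4% of all did). GPX4, which reduces lipid peroxides, fell 1.28-fold from 264 ± 15 to 207 ± 15 TPM (log2 difference -0.36, limma adjusted p = 0.0021). GLRX3, a cytosolic glutaredoxin of iron handling, fell 1.23-fold to 85.6 ± 9.2 TPM (log2 difference -0.30, adjusted p = 0.014). After median-of-ratios scaling neither was called. GPX7, the close relative of GPX8 in the endoplasmic reticulum, had 1.74 ± 0.57 and 2.09 ± 0.44 TPM (adjusted p = 0.51). SOD3, GPX5 and GPX6 were at or near 0.

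Of 8 genes that build and insert selenocysteine, 6 fell and 1 rose. That is 75.0% lower against 39.5% of all tested genes and 12.5% higher against 13.4%, with a median of -0.50 against -0.21. SECISBP2, which binds the RNA element that recodes TGA in GPX1 and its relatives, fell 1.53-fold from 69.4 ± 2.8 to 45.4 ± 2.1 TPM. The selenocysteine lyase gene SCLY fell 1.54-fold, SEPHS1 1.43-fold and the elongation factor gene EEFSEC 1.40-fold, while SEPHS2, the selenophosphate synthetase, rose 1.18-fold. After median-of-ratios scaling 4 fell and 1 rose, against 23.1% and 23.9% of all tested genes.

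Of 25 genes with a selenocysteine codon in GENCODE 29, GPX1 and GPX3 among them, 18 were tested, 10 fell, 3 rose and 5 did not pass. That is 55.6% lower against 39.5% of all tested genes (13.4% of which were higher), with a median of -0.23 against -0.21. After median-of-ratios scaling 4 fell and 4 rose, 22.2% lower against 23.1% of all tested genes (23.9% of which were higher). The fall of GPX1 (-0.80) was second to that of TXNRD1, the cytosolic thioredoxin reductase, which fell 2.79-fold (-1.47). TXNRD2 (-0.69) and SELENOS (-0.67) came next, while MSRB1, a methionine sulphoxide reductase, rose 1.76-fold (0.79).

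Of 14 genes that supply glutathione and NADPH to these enzymes, 13 were tested, with 5 higher, 5 lower and 3 not passing. That is 38.5% in each direction, against 13.4% higher and 39.5% lower among all tested genes. Median-of-ratios scaling gave 7 higher and 2 lower, against 23.9% and 23.1% of all tested genes. The cystine transporter gene SLC7A11 fell 15.5-fold, and glutathione synthetase GSS fell 1.61-fold from 142 ± 7.5 to 88.5 ± 3.5 TPM. IDH1, which makes NADPH in the cytosol and peroxisomes, rose 2.60-fold from 41.9 ± 2.6 to 109 ± 4.9 TPM. GSR, which regenerates the glutathione that GPX1 and GLRX oxidise, rose 1.20-fold from 44.1 ± 0.37 to 52.8 ± 3.0 TPM (limma adjusted p = 0.0067).

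Of 10 genes of copper delivery, not all of them on the route to SOD1, 2 rose (13.4% of all tested genes did). Another 1 fell (39.5% did) and 7 did not pass. Median-of-ratios scaling gave 4 higher and 0 lower, against 23.9% and 23.1% of all tested genes. The chaperone gene ATOX1 rose 1.77-fold from 111 ± 13 to 197 ± 12 TPM, and MT2A rose 1.18-fold, while the exporter gene ATP7B fell 1.40-fold. CCS, the chaperone that hands copper to SOD1, did not pass, with a log2 difference of -0.03 (limma adjusted p = 0.71).

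Of 30 genes of peroxisome assembly and oxidation, the compartment of catalase, 27 were tested, with 9 higher, 2 lower and 16 not passing. The 33.3% higher compares with 13.4% of all tested genes and the 7.41% lower with 39.5%, and the median was 0.05 against -0.21. Median-of-ratios scaling gave 12 higher and 2 lower, against 23.9% and 23.1% of all tested genes, with a median of 0.28. PECR, a peroxisomal enoyl-CoA reductase, rose 1.57-fold from 7.83 ± 0.88 to 12.3 ± 0.26 TPM, and SCP2, a sterol carrier and thiolase, rose 1.36-fold. PEX10, a ring finger protein of matrix import, fell 1.53-fold.

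Of 25 genes of iron-sulphur cluster assembly, the pathway of GLRX5, 2 rose and 10 fell. That is 40.0% lower against 39.5% of all tested genes and 8% higher against 13.4%. HSPA9, the chaperone that moves the cluster on towards GLRX5, fell 1.90-fold from 319 ± 4.0 to 168 ± 2.9 TPM. Its partner HSCB fell 1.80-fold and the ferredoxin gene FDX2 2.16-fold, while CIAO2A rose 1.40-fold. Under median-of-ratios scaling the split turned to 7 higher and 3 lower, against 23.9% and 23.1% of all tested genes.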

How the data were processed

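The authors deposited 1 table of TPM for 6 libraries, and each column was matched to its library by name. HISAT2 2.2.1 and Trimmomatic 0.38 are named in the submitters' processing notes, as are StringTie 2.1.7, FastQC, DESeq2 1.34.0 and the build hg38, without roles or order. The annotation and strand use are not given there.

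Symbols came from a gene table (40818 identifiers) or GENCODE 29 (840, SOD2 among them), and the most abundant identifier kept a shared name. All 190 list genes matched. Genes with a mean of at least 1 TPM were tested two-sided by limma 3.58.1 (R 4.3.3, eBayes with trend) after adding a pseudocount of 1 and taking log2, with Benjamini-Hochberg adjustment and calls under 0.05. On simulated data made from the 16734 genes of this comparison, 200 were changed, and 11 of 141 calls fell on unchanged genes. The test recovered 93.9% of changes of 2, 74.6% of changes of 1 and 26.9% of changes of 0.5 on the log2 scale. In the real comparison 52.9% of tested genes were called, so its adjustment was less strict. These rates therefore do not carry over to it.

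The members and lists were chosen with earlier results of these data known. Each list contributes the 4 genes with the smallest p, of which some are not reported here. SEPHS2, GSR, CCS, BACH1, KEAP1 and ERO1A lie outside that rule and were named after their values were seen. The same holds for the NADPH oxidase genes, the overlapping genes and copies, and the markers KLF5, KRT7, EPCAM and CDH1. No column was left out and no libraries were identical. Alternatives were other pseudocounts, filters, scalings and eBayes settings, array weights, a replicate block and each library left out.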

Additional observations from a re-analysis of the deposited data

How the results depend on the processing

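SOD1, CAT, GPX1, GLRX and GLRX2 kept their direction and their call in each of 17 alternatives (pseudocounts, filters, scalings, eBayes settings, array weights, replicate block and each library left out). As deposited 2247 genes were higher and 6610 lower, against 3995 and 3861 after median-of-ratios scaling and 3814 and 3966 after quantile normalization, which centre the libraries by construction. SOD2 became a call with array weights (0.66) and in 1 of the 6 fits that leave a library out, which ranged from 0.35 to 0.91. GPX8 became a call after median-of-ratios scaling (0.24) and quantile normalization (0.29), turned to -0.0078 with array weights and ranged from -0.0453 to 0.0845 with a library left out. GLRX5 ranged from -0.0684 to 0.0930 likewise, and the difference in summed glutaredoxin TPM from -9.30 to 4.87. The difference in SOD1's share of dismutase TPM ranged from -1.48 to 3.79 percentage points and that of SOD2 from -3.79 to 1.48, with the sign turning without DCBQ replicate 2. With SOD3, GPX4, GPX7 and GLRX3 added to the totals, the differences in share were -8.18 points for GPX1, 0.51 for GPX3, 1.14 for GPX8, 2.49 for GLRX, -3.34 for GLRX2 and 5.37 for GLRX5, where the added GPX4 and GLRX3 themselves fell. The cause of the other changes was not tested. Same-numbered libraries did not deviate together (r = -0.0368, 0.0453 and 0.0458 over tested genes). Whether they were paired by culture or day is not labelled, and these correlations cannot settle it. A replicate block changed no member's call and left the difference of SOD1 at 0.78 (limma adjusted p = 0.00012). The sum of both SOD2 identifiers was chosen after seeing the data. The unknown depth limits what can be said of GPX2.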

Other observations

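Genes that make superoxide or hydrogen peroxide supply the substrates of the enzymes above. Of the 20 listed, 10 passed the filter, with 3 higher, 4 lower and 3 not passing, against 13.4% higher and 39.5% lower among all tested genes. Median-of-ratios scaling gave 4 higher and 3 lower, against 23.9% and 23.1% of all tested genes. CYBA, the shared membrane subunit of NADPH oxidases, rose 1.62-fold from 226 ± 17 to 368 ± 27 TPM. The catalytic subunit genes NOX1, NOX3, NOX4, NOX5 and CYBB were below the filter, NOX4 at 0 in all 6 libraries, as was DUOX2. The oxidase gene DUOX1 was tested, at 2.53 ± 1.2 TPM in control and 1.33 ± 0.71 in DCBQ, and did not pass (limma adjusted p = 0.13). XDH, xanthine dehydrogenase, rose 1.48-fold to 15.0 ± 0.56 TPM. NOXA1, an oxidase activator, fell 1.88-fold, and ERO1B, an oxidase of the endoplasmic reticulum that yields peroxide, 1.97-fold to 2.86 ± 0.48 TPM. The more abundant ERO1A of the same list rose 1.11-fold from 75.4 ± 2.6 to 83.5 ± 2.9 TPM (limma adjusted p = 0.0404).

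Of the 15 listed regulators of antioxidant genes 13 were tested, 7 fell and 0 rose, with a median of -0.34. Among all tested genes 39.5% fell and 13.4% rose. NFE2L2, which encodes NRF2, fell 1.67-fold from 151 ± 2.9 to 90.5 ± 5.9 TPM. The fatty acid receptor gene PPARA, a regulator of peroxisomal genes, fell 1.98-fold, RELA 1.41-fold and NFE2L1 1.33-fold. BACH1, a repressor at antioxidant response elements, fell 1.96-fold. KEAP1, which holds NRF2 in check, did not pass, with a log2 difference of -0.13 (limma adjusted p = 0.096). After median-of-ratios scaling 5 fell and 2 rose, against 23.1% and 23.9% of all tested genes.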
